A study of Bos taurus with 18 samples.

Results

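The transcripts of the bovine mitochondrial genome were followed gene by gene through heat and recovery in MAC-T, a cell line derived from the cow's mammary epithelium and made immortal. Members were all genes of the count table whose names start with KEH36, the locus tag prefix of the mitochondrial genome. They numbered 37 of 30642 genes, and the rule used no measured value. All 37 were matched by locus tag to the RefSeq gene table of assembly ARS-UCD2.0, which gave 13 protein-coding genes, 2 rRNA genes and 22 tRNA genes. No sequence of a member was used here.

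Poly(A)-selected RNA was sequenced in 18 libraries, 3 in each of 6 groups, all cultured for 4 days. Unheated cells stayed at 37 °C. They were either undifferentiated in basal medium with insulin and hydrocortisone (NHSUD) or differentiated in lactogenic medium with prolactin and dexamethasone (NHSD). Hydrocortisone was present in all 6 groups, so the media differed in prolactin and dexamethasone and not in hydrocortisone. Heated cells spent 1 h at 42 °C, again undifferentiated (HSUD) or differentiated (HSD). Recovered cells were differentiated, heated and returned to 37 °C for 2 h (D2R) or 6 h (D6R). NHSUD and NHSD shared 1 plate, HSUD and HSD another, and D2R and D6R the third, so a plate effect and an effect of heat or recovery cannot be told apart. Only the medium comparisons and 6 h against 2 h of recovery lay within a plate. The experiment was run 3 times, and the replicate number was taken as the run. Each library pooled the RNA of 2 technical replicates, and MAC-T is a single cell line, so the p-values rest on libraries of these runs only. Where the replicate number was in the model, average differences between runs were taken out, and the p-values measure the spread that remained.

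Mitochondrial DNA is transcribed from both strands into long precursors that span many genes. The precursors are cut, largely at the tRNAs, into the separate mRNAs, rRNAs and tRNAs. The 13 mRNAs code for subunits of the respiratory chain and ATP synthase: ND1 to ND6 with ND4L for complex I, CYTB for complex III, COX1 to COX3 for complex IV, and ATP6 and ATP8 for ATP synthase. The 2 rRNAs build the mitochondrial ribosome that translates them. All other subunits of these complexes come from the nucleus. In the mammary gland this machinery supplies the ATP for milk synthesis.

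Library totals were 40891703 to 61155755 counts, so 3 counts, the limit that a count of 0 allows, corresponded to 0.0499 to 0.0779 CPM (counts scaled to a common library size). Heat was visible in the heat shock genes HSPA1A and DNAJB1, whose summed level was 513 CPM in NHSUD, 527 in NHSD, 9979 in HSUD, 8807 in HSD, 2952 in D2R and 981 in D6R (group means, n = 3). All 8 epithelial markers averaged at least 5 CPM. Among markers of other cell types, the fibroblast list had only DCN (588 CPM) and PDGFRA (7.84 CPM) above that level, and the endothelial list none.

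Mitochondrial genes took a mean of 2.46% ± 0.485 of all counts (SD, n = 18), with a range of 1.84% to 3.51%. By group the share was 2.41% ± 0.218 in NHSUD, 2.57% ± 0.421 in NHSD, 2.32% ± 0.612 in HSUD, 2.69% ± 0.835 in HSD, 2.62% ± 0.622 in D2R and 2.18% ± 0.194 in D6R (SD, n = 3 each). Counting error was far smaller than this spread, since the 95% Wilson interval of a share was at most 0.00548 percentage points wide on either side (counting error only).

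Within groups the libraries spread widely. In HSD the share was 1.84%, 2.72% and 3.51% in replicates 1, 2 and 3, and in NHSD it was 3.05%, 2.27% and 2.39%, so the groups overlapped throughout. In HSUD it was 1.95%, 1.98% and 3.03%, against 2.43%, 2.61% and 2.18% in NHSUD. Heat over both media differed from no heat by 0.013 percentage points (higher in 3 of 6 pairs, exact two-sided permutation test within medium, p = 0.965). Lactogenic against basal medium over both temperatures differed by 0.265 points (higher in 4 of 6 pairs, exact permutation test, p = 0.42). The smallest p that these exact permutation tests can give is 0.005.

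**Figure D1:**
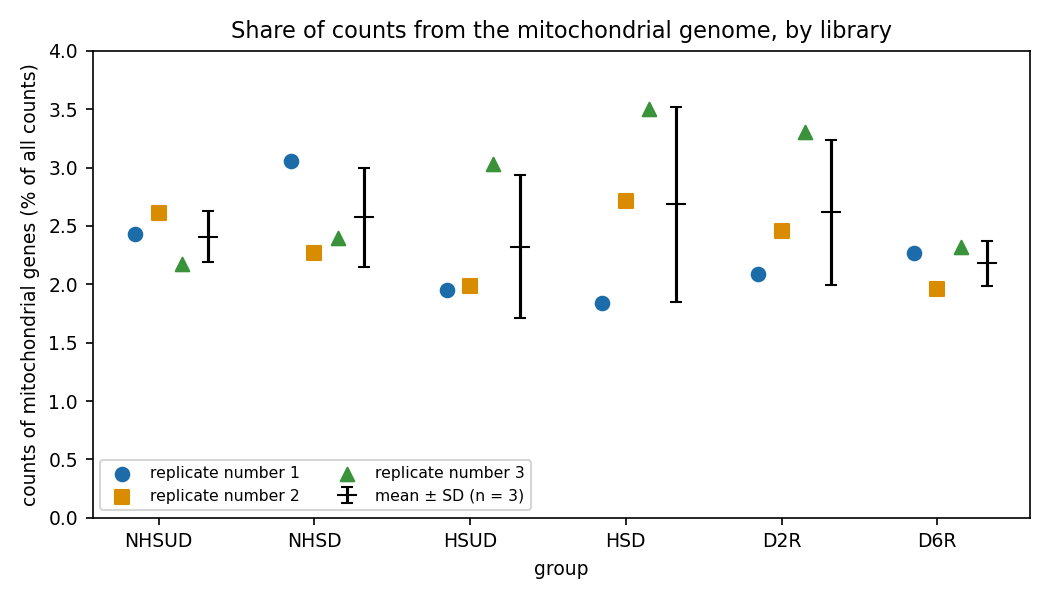
Percent of all counts that came from the 37 mitochondrial genes (y axis) in each library, by group (x axis). Symbols mark the replicate number, and bars give the mean ± SD of 3 libraries. HSD spans 1.84% to 3.51%, wider than the distance between any pair of group means.

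The mitochondrial counts were dominated by a few mRNAs. COX1 alone took 54.1% of them on average (48.8% to 65.4% over the libraries), and COX1, COX3, COX2 and ND1 together 79.5%. The 13 mRNAs held 97.8%, the 2 rRNAs 1.79% and the tRNAs 0.445%. These are shares of reads and were not divided by gene length, so they do not rank the transcripts by abundance. ATP8 with ATP6, and ND4L with ND4, overlap on the same strand, while ND5 and ND6 lie on opposite strands. Strand and multi-mapping settings were not given in the sources used here, so reads in the overlaps, or shared with nuclear copies of mitochondrial DNA, make the separate values uncertain to that extent.

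Reads of tRNA genes came nearly all from 1 gene. KEH36_t22 held 92300 of the 92602 tRNA reads (99.7%), and the other 21 genes held 302. Of the 22 genes, 12 had no read in any library, and 19 had at most 10 reads over all 18 libraries. KEH36_t12 had 239 reads in all and was the other tRNA gene with enough counts for the test. The rRNA and tRNA values describe reads that passed poly(A) selection, not the total of these RNAs. Both rRNAs and all 13 mRNAs were tested too, which gave 17 members among 15158 tested genes.

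The mRNAs varied together across the libraries. Over the 78 pairs of mRNAs the median Pearson correlation of log2 CPM was 0.76 (0.147 to 0.949, n = 18 libraries), and for the 2 rRNAs it was 0.889. Between an rRNA and an mRNA the median was only 0.252, and KEH36_t22 stood nearer to the rRNAs (0.631 and 0.693) than to the mRNAs (median 0.083). These correlations share libraries, runs and scaling and are given as a description. Counts of members that move one way are therefore not counts of independent genes. The mRNAs had a median coefficient of variation of 24.4% over the libraries, against 20.8% for all tested genes and 14.1% for tested genes with at least 50 CPM.

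**Figure D2:**
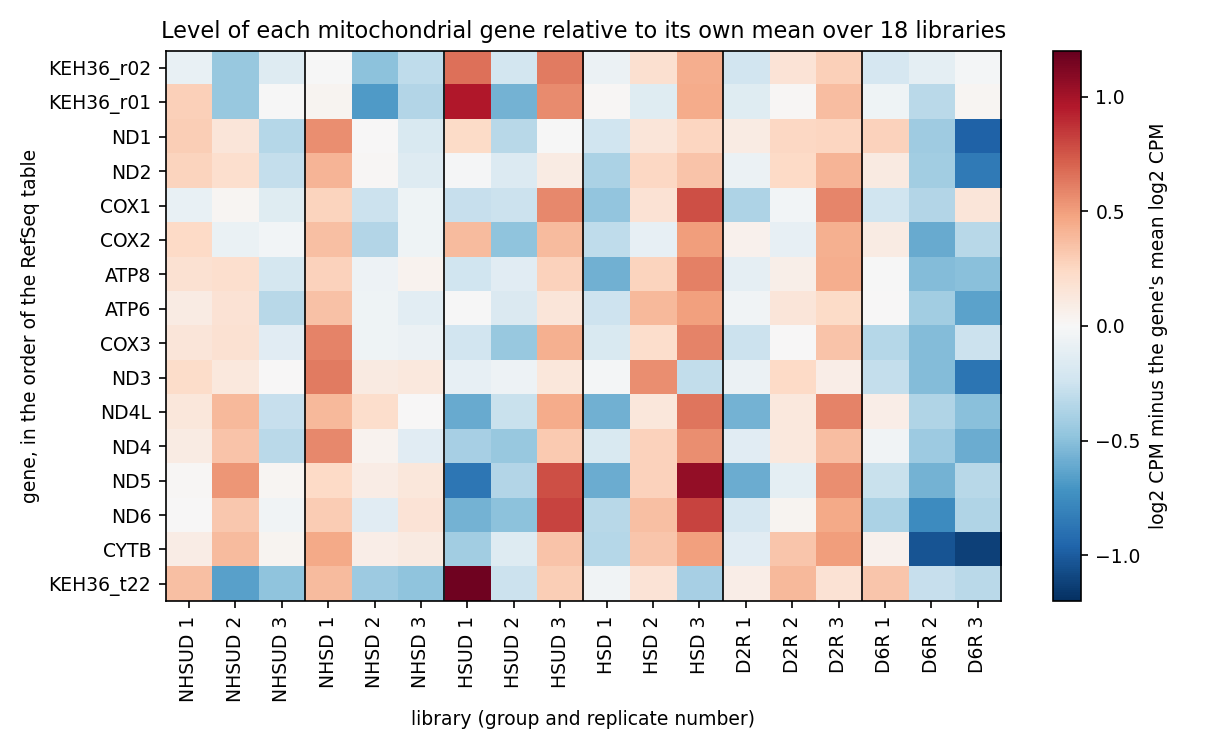
Log2 CPM of each mitochondrial gene minus its own mean over the 18 libraries (colour scale), with genes in the order of the RefSeq table (y axis) and libraries by group and replicate number (x axis). Replicate 3 of HSD and D2R is high for most mRNAs, replicates 2 and 3 of D6R are low, and the first HSUD library is high for the rRNAs and KEH36_t22 but not for ND5.

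No member was called in any comparison between groups (edgeR quasi-likelihood test, Benjamini-Hochberg adjusted p under 0.05, 0 of 17 each time). The background was low as well. The share of all tested genes called was 0.0% for medium without heat, 0.0% for medium with heat, 0.125% for heat in undifferentiated cells, 0.099% for heat in differentiated cells and 0.0% for their difference. It was 0.0792% for D2R against NHSD, 0.0132% for D6R against NHSD, 0.0528% for D2R against HSD, 0.066% for D6R against HSD and 0.0% for D6R against D2R. At an unadjusted p under 0.05, the members past the threshold numbered 1 for each heat comparison, 3 for D6R against NHSD, 6 for D6R against HSD, 4 for D6R against D2R and 0 for the other 5 comparisons. DESeq2 called 1 member, ND3 in D6R against NHSD, and 0 in the other 9 comparisons. For the unadjusted counts and for DESeq2 no share of all tested genes is given. Neither can therefore be set against a background, and no result is read from them.

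The lowest group mean of summed mitochondrial mRNA was seen 6 h after heat, but the libraries overlapped with those of the other groups. The sum was 21432, 17515 and 21529 CPM in D6R. In replicate 1 of HSD it was 18137 CPM, in replicate 1 of D2R 19940 and in replicate 2 of NHSD 20992. All 13 mRNAs had a lower fitted level in D6R than in NHSD, with a median log2 fold change of -0.45 (median of all tested genes -0.00). Against HSD the median was -0.57 and against D2R -0.47, again with 13 of 13 lower (all tested genes 0.01 in both). The 3 comparisons share the D6R libraries. The fold changes ranged from -0.14 ± 0.31 (SE) for COX1 to -0.85 ± 0.20 for ND3 in D6R against NHSD, where the adjusted p was 0.998 for COX1 and 0.393 for ND3. The COX1 difference was 0.016 without replicate 1 of NHSD.

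ND3 codes for a small membrane subunit of complex I. Its level was 362, 254 and 257 CPM in NHSD, 230.5, 347 and 192 in HSD, and 224, 277 and 249 in D2R. In D6R it was 193, 164 and 128 CPM, below every library of NHSD and D2R, while it overlapped with HSD. The group means were 291 ± 61.6 CPM in NHSD and 161 ± 32.6 CPM in D6R (SD, n = 3). Within runs 1, 2 and 3 the log2 difference of D6R from NHSD was -0.91, -0.63 and -1.01.

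With the replicate number as a block, ND3 was called lower in D6R than in NHSD (log2 fold change -0.86 ± 0.18, edgeR adjusted p = 0.0319), and it was the only member called. With the block, 1.45% of all tested genes were called in that comparison and 0.778% were called lower. In the other comparisons 0 of 17 members were called with the block, where the share of all tested genes called was 0.0066% for medium without heat, 0.0198% for medium with heat, 0.633% and 0.554% for heat in undifferentiated and differentiated cells, and 0.0% for their difference. It was 0.224% for D2R against NHSD, 0.389% for D2R against HSD, 3.27% for D6R against HSD and 0.0% for D6R against D2R. When 1 of the 6 libraries was left out of the blocked fit, ND3 was called only without replicate 1 of D6R, and its adjusted p ranged from 0.0202 to 0.217. The call thus rested on 5 of the 6 libraries, each of which ended it when left out.

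CYTB, the mitochondrially coded subunit of complex III, had the next lowest fold change against NHSD (-0.82 ± 0.29, edgeR adjusted p = 0.729). Leaving out 1 library gave -1.30 to -0.62, and with the block CYTB was called only without replicate 1 of D6R (adjusted p = 0.00544). Its level was 956, 738 and 751 CPM in NHSD and 722, 340.3 and 320.1 in D6R, so replicate 1 of D6R lay just under the NHSD range and the other two far below it. In D2R it was 633, 879.8 and 985 CPM. ND6, the only mRNA coded on the light strand, was 94.0, 69.2 and 85.0 CPM in NHSD and 58.5, 44.9 and 59.0 in D6R (log2 fold change -0.61 ± 0.32, adjusted p = 0.881). Strand settings were not given, so ND6 counts may hold reads of the opposite strand. In HSD its level was 60.1, 97.7 and 133 CPM, and D6R lay below all 3. COX3 was 4012, 2554 and 2528 CPM in NHSD against 2093, 1849 and 2220 in D6R (-0.56 ± 0.25, adjusted p = 0.784).

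Read along the genome in the order of the RefSeq table, the D6R against NHSD fold changes were -0.45 for ND1, -0.44 for ND2, -0.14 for COX1, -0.26 for COX2, -0.42 for ATP8 and -0.40 for ATP6. They continued with -0.56 for COX3, -0.85 for ND3, -0.45 for ND4L, -0.54 for ND4, -0.54 for ND5, -0.61 for ND6 and -0.82 for CYTB. None of these passed the test without the block. Leaving out 1 of the 6 libraries gave -0.84 to -0.19 for ND1, -0.73 to -0.24 for ND2, -0.48 to -0.06 for COX2, -0.60 to -0.24 for ATP6, -0.67 to -0.31 for COX3 and -0.71 to -0.30 for ND4. The rRNA genes KEH36_r02 (0.14 ± 0.21) and KEH36_r01 (0.20 ± 0.30) had fitted levels slightly above NHSD, within their standard errors.

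**Figure D3:**
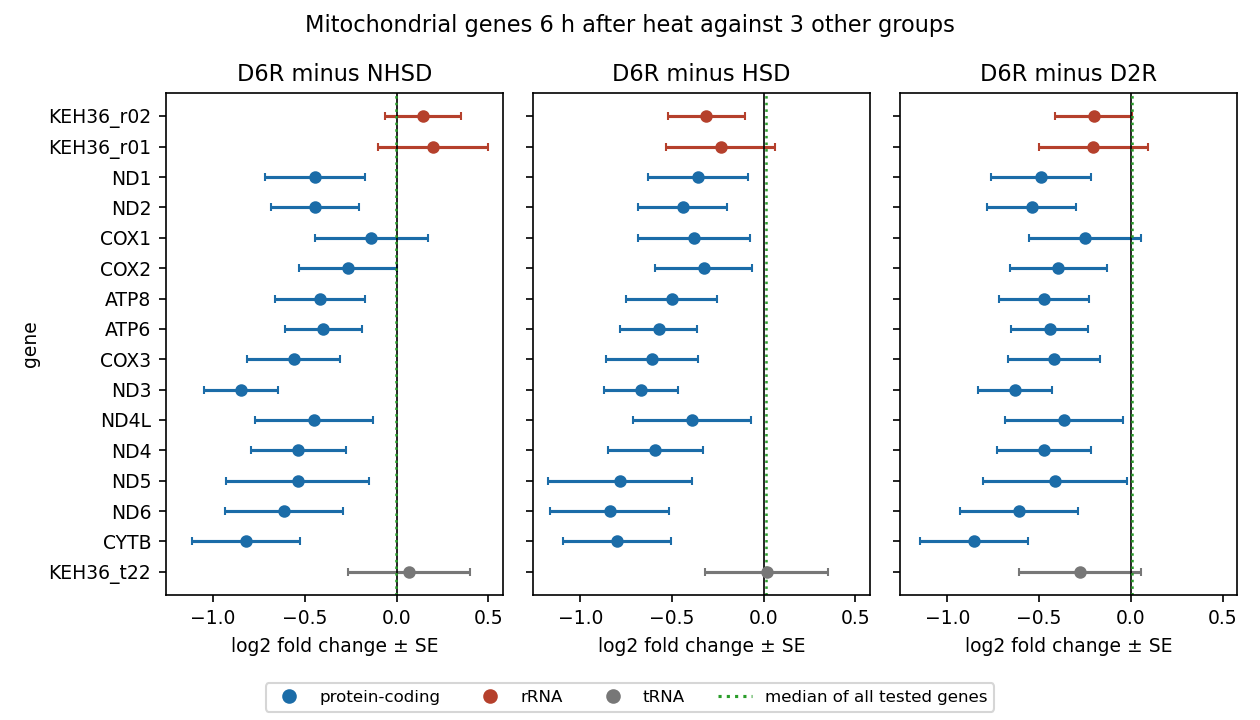
Log2 fold change ± SE (x axis) of 16 tested mitochondrial genes (y axis, order of the RefSeq table; KEH36_t12, with few reads, is not drawn) in D6R against NHSD, HSD and D2R. All 13 mRNAs lie left of 0 in each panel, with ND3 at -0.85 and COX1 at -0.14 in the first panel, and the dotted line marks the median of all tested genes.

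For most mRNAs the direction held in each run only against NHSD. There 12 of 13 mRNAs were lower in 3 of 3 runs (20.4% of all tested genes were), and the median difference of the mRNAs was -0.40, -0.47 and -0.51 in runs 1, 2 and 3. COX1 was the exception, being higher in run 3. COX3, ND3, ND5, ND6 and CYTB were lower in every D6R library than in every NHSD library (5 of 13, against 4.12% of all tested genes). Against HSD the median difference was 0.32 in run 1, with 3 of 13 lower, but -0.73 and -1.14 in runs 2 and 3, with 13 of 13 lower in both. Against D2R it was 0.10 in run 1 (3 of 13 lower), -0.56 in run 2 and -0.93 in run 3 (13 of 13 lower in both).

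Of the mRNAs, COX3, ND3 and ND6 were lower in 3 of 3 runs against HSD and the same 3 against D2R. In those comparisons 21.2% and 18.1% of all tested genes were. Both rRNAs were also lower than in HSD in 3 of 3 runs. In runs 1, 2 and 3 the log2 difference was -0.13, -0.31 and -0.46 for KEH36_r02 and -0.07, -0.17 and -0.42 for KEH36_r01. COX3 and ND6 were lower in every D6R library than in every HSD library (2 of 13, with 6.62% of all tested genes), and ND3 and ND6 were below every D2R library (2 of 13, with 3.38%). Summed levels of the 36 genes with HIST names, histone genes whose main transcripts lack a poly(A) tail, were 757 ± 136 CPM in NHSD, 800 ± 74.5 in HSD, 750 ± 86.2 in D2R and 618 ± 146 in D6R (SD, n = 3). Of the 31 tested, 24 were lower in D6R than in NHSD (median log2 fold change -0.18). Their part in the D6R result was not tested. Fewer mitochondria per cell, less RNA per mitochondrion and more RNA of other genes cannot be told apart in these shares of bulk RNA.

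With heat, the mRNAs were lower in some runs and higher in others. In differentiated cells, HSD was below NHSD for 13 of 13 mRNAs in run 1 (median log2 difference -0.78), but below for only 1 of 13 in run 2 (0.26) and 1 of 13 in run 3 (0.62). In undifferentiated cells, 12 of 13 were lower in run 1 (-0.38), 13 of 13 in run 2 (-0.48) and 0 of 13 in run 3 (0.49). No mRNA was lower or higher in 3 of 3 runs in either medium. Of all tested genes, 16.6% were lower and 17.7% higher in 3 of 3 runs in undifferentiated cells, and 14.4% and 15.9% in differentiated cells. COX1 shows the pattern: its level was 15747, 10932 and 12607 CPM in NHSD and 9393, 14762 and 22312 CPM in HSD. The fitted median over the 13 mRNAs was -0.10 in undifferentiated and 0.05 in differentiated cells, with 0 called in each.

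After 2 h of recovery the runs differed in direction again. D2R against NHSD had 13 of 13 mRNAs lower in run 1 (median -0.59), 2 of 13 in run 2 (0.16) and 1 of 13 in run 3 (0.43), with a fitted median of 0.03. NHSD served as the control for HSD, D2R and D6R alike, so its replicate 1, with the highest share of the unheated libraries (3.05%), enters each run 1 difference. The lactogenic medium gave a fitted median of 0.07 without heat and 0.22 with heat. Without heat 0, 13 and 1 of 13 mRNAs were lower in runs 1, 2 and 3. With heat 5 of 13 (COX3, ND4L, ND4, ND5 and CYTB) were higher in 3 of 3 runs, where 13.3% of all tested genes were.

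The rRNAs had another profile than the mRNAs. KEH36_r02 was 128, 99.4 and 123 CPM in NHSUD and 216, 117 and 211 in HSUD, higher in 3 of 3 runs (17.7% of all tested genes were). It was 136, 96.8 and 110.4 CPM in NHSD and 130.2, 155 and 185 in HSD, higher in 2 of 3 runs. Its log2 fold change with heat was 0.63 ± 0.21 in undifferentiated cells (edgeR adjusted p = 0.710) and 0.46 ± 0.21 in differentiated cells (adjusted p = 0.996). KEH36_r01, the rRNA with more reads, was 344, 206 and 282 CPM in NHSUD, 552, 190.2 and 418 in HSUD, 289, 177 and 221 in NHSD and 286, 255 and 386 in HSD. After recovery it was 256, 285 and 366 CPM in D2R and 273, 226 and 288 in D6R. Its fold changes were 0.48 ± 0.30 and 0.43 ± 0.30, and the groups overlapped in both media.

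Averaged over both media, a comparison chosen after the values were seen, heat gave KEH36_r02 a log2 fold change of 0.55 ± 0.15 (edgeR adjusted p = 0.128; 0.785% of all tested genes were called). With the replicate block it was called higher (0.54 ± 0.13, adjusted p = 0.0290), where 3.13% of all tested genes were called higher and 6.1% in either direction. DESeq2 without a block called it too, but no share of all tested genes is given for DESeq2, so no result is read from that call. In the blocked fits that left out 1 of the 12 libraries it was called in 4, those without replicate 1 of NHSUD, NHSD or HSD or without replicate 2 of HSUD. The other 8 libraries each ended the call when left out, with an adjusted p of up to 0.106. Without the block it was called only when replicate 2 of HSUD was left out (adjusted p = 0.0171). KEH36_r01 had 0.46 ± 0.21 (adjusted p = 0.492) and was not called with the block.

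Set against the mRNAs of the same library, rRNA counts were higher after heat in all 6 run-matched pairs. There were 17.0 ± 4.20 rRNA counts per 1000 mRNA counts in NHSUD and 24.0 ± 10.9 in HSUD, and 13.9 ± 0.856 in NHSD and 17.9 ± 4.36 in HSD (SD, n = 3 each). The first HSUD library stood apart with 36.4, against 16.0 and 19.5 in the other two. The log2 ratio was 0.39 higher with heat (exact two-sided permutation test within medium, p = 0.13). The 6 pairs come from 3 runs and went together by run, with log2 differences of 0.90 and 0.72 in run 1, 0.40 and 0.23 in run 2 and 0.015 and 0.069 in run 3 (undifferentiated and differentiated). The permutation tests here treat the libraries of a run as independent. Without run 1 the difference was 0.18 (exact permutation test, p = 0.333). With COX1 left out of the mRNAs it was 0.48 (exact permutation test, p = 0.035). This ratio was also chosen after the values were seen. In D2R it was 17.7 ± 1.37 and in D6R 19.3 ± 0.945 rRNA counts per 1000, and D6R lay above all 3 NHSD libraries (14.0, 13.0 and 14.7).

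KEH36_t22, the tRNA gene with reads, was 129.7, 64.3 and 72.3 CPM in NHSUD and 226, 84.2 and 124 in HSUD, higher in 3 of 3 runs but overlapping (log2 fold change 0.71 ± 0.33, edgeR adjusted p = 0.999). In NHSD it was 131, 74.6 and 72.1 CPM and in HSD 98.2, 113 and 76.6, a difference of 0.05 ± 0.33. In D2R it was 107, 132 and 114 CPM, and in D6R 127, 83.3 and 80.6 CPM.

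**Figure D4:**
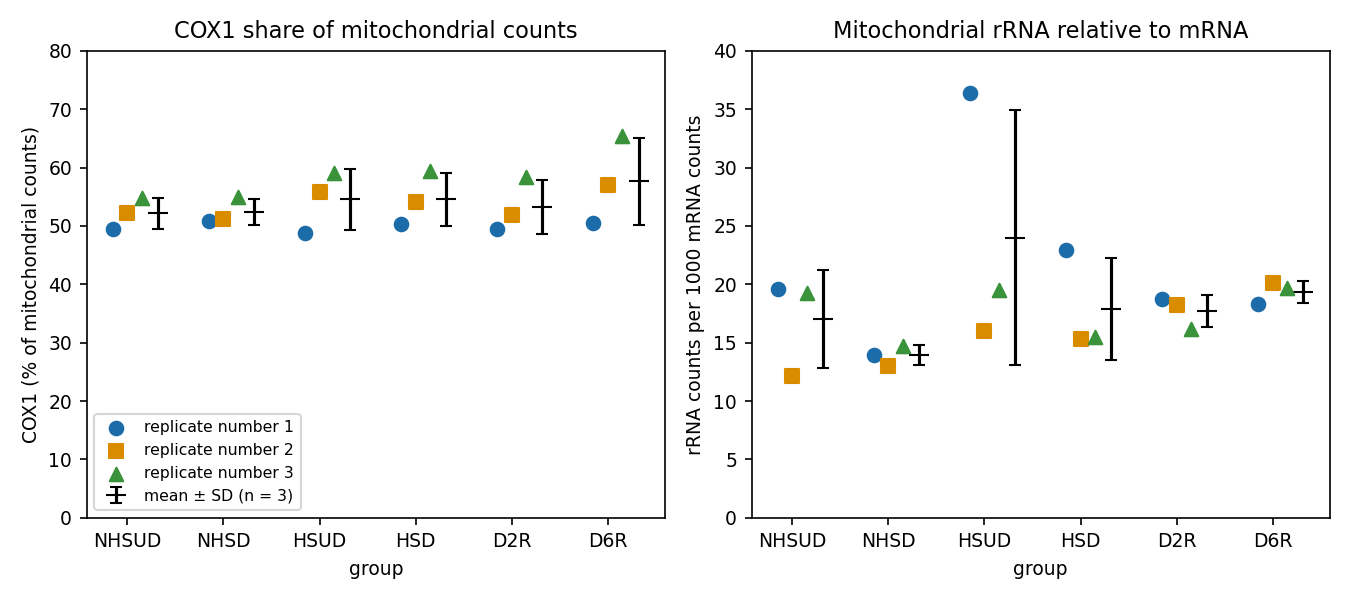
COX1 as percent of the mitochondrial counts (left) and rRNA counts per 1000 mitochondrial mRNA counts (right), by group (x axis), with symbols for the replicate number and bars for the mean ± SD of 3 libraries. COX1 is lowest in replicate 1 and highest in replicate 3 of every group, and the first HSUD library stands out at 36.4 on the right.

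COX1 took different shares of the mitochondrial counts in the 3 runs. COX1, the catalytic subunit of complex IV, took 49.9% ± 0.774 of the mitochondrial counts in run 1 (48.8% to 50.9%), 53.7% ± 2.34 in run 2 and 58.7% ± 3.86 in run 3 (54.8% to 65.4%; SD, n = 6). Every run 1 library lay below every library of the other two runs. The differences were 3.75 points for run 2 against run 1, 8.74 for run 3 against run 1 and 4.99 for run 3 against run 2, each higher in 6 of 6 groups (exact two-sided permutation tests, adjusted p = 0.00325, 0.00325 and 0.0152). The first 2 of these come from the smallest p the test can give, 0.00216. The test compares these 3 runs, each of which was done once. This result, too, was picked after the values were seen. ND1 had the opposite order, with 8.56% ± 0.617 in run 1, 7.37% ± 0.565 in run 2 and 5.53% ± 0.939 in run 3.

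The total mitochondrial share differed between runs by 0.061 points for run 2 against run 1, 0.515 for run 3 against run 1 and 0.454 for run 3 against run 2 (exact permutation tests, adjusted p = 0.773, 0.182 and 0.182). Without COX1 the same differences were -0.05, 0.014 and 0.066 points. The higher mean share of run 3 lay nearly all in COX1 counts.

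Gene by gene, 3 of 17 members were called in each comparison of runs (edgeR with group in the model). Of all tested genes, 28.6%, 44.4% and 29.6% were called for run 2 against 1, run 3 against 1 and run 3 against 2. With both directions together, members were thus called less often than all tested genes in each comparison. The calls below are therefore not read as particular to the mitochondrial genome. By direction, 13.9% were lower and 14.8% higher in run 2 than in run 1, where the 3 members were lower. In run 3, 21.4% were lower and 23.0% higher than in run 1 (1 and 2 members), and 14.5% were lower and 15.1% higher than in run 2 (0 and 3 members). COX1 averaged 11562 ± 2267, 12146 ± 1739 and 16706 ± 4333 CPM in runs 1, 2 and 3 (SD, n = 6). Beside the NHSD and HSD values above, it was 12266, 13278 and 11789 CPM in replicates 1, 2 and 3 of NHSUD, 10791, 10928 and 19486 in HSUD, 10093, 12748 and 19623 in D2R and 11081, 10228 and 14419 in D6R. Replicate 3 of HSUD, HSD and D2R thus lay above all other libraries. On the log2 scale COX1 was 0.51 ± 0.16 higher in run 3 than in run 1 (adjusted p = 0.0195) and 0.45 ± 0.16 higher than in run 2 (adjusted p = 0.0472). ND5, a membrane subunit of complex I, averaged 217 ± 63.9 CPM in run 1, 270.2 ± 75.1 in run 2 and 362 ± 128 in run 3. By replicate it was 269, 383 and 271 CPM in NHSUD, 314, 283 and 292 in NHSD, 146, 209 and 455 in HSUD, 176, 322 and 553 in HSD, 177, 245 and 392 in D2R and 221, 179 and 211 in D6R, so run 3 was high in the heated cells and D2R and not in D6R. ND5 was 0.73 ± 0.26 higher in run 3 than in run 1 (adjusted p = 0.0424). COX2, which receives electrons from cytochrome c, averaged 1958 ± 322, 1456 ± 223 and 1987 ± 443 CPM. By replicate it was 2076, 1662 and 1713 CPM in NHSUD, 2250, 1376 and 1693 in NHSD, 2292, 1259 and 2278 in HSUD, 1426, 1642 and 2485 in HSD, 1823, 1644 and 2357 in D2R and 1879, 1153 and 1396 in D6R. Replicate 2 was lowest in all groups but HSD. Its log2 fold change was -0.44 ± 0.14 in run 2 against run 1 (adjusted p = 0.0247) and 0.44 ± 0.14 in run 3 against run 2 (adjusted p = 0.0239).

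KEH36_r01 had the same pattern as COX2, with -0.55 ± 0.16 in run 2 against run 1 (edgeR adjusted p = 0.0235) and 0.52 ± 0.16 in run 3 against run 2 (adjusted p = 0.0288). KEH36_t22 was lower in both later runs, by -0.56 ± 0.19 (adjusted p = 0.0450) and -0.62 ± 0.19 (adjusted p = 0.0190). Its mean was 137 CPM in run 1, 92.0 in run 2 and 89.9 in run 3. No call among the members held in all 12 fits that left out 1 library of the runs compared.

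KEH36_r01 in run 2 against run 1 was lost without replicate 1 or 2 of NHSUD or replicate 1 of NHSD (adjusted p up to 0.0727). COX2 there was lost without replicate 1 of NHSUD, or replicate 1 or 2 of NHSD, HSUD or D6R (up to 0.0958), and KEH36_t22 without replicate 1 or 2 of any of these 4 groups (up to 0.121). In run 3 against run 1, COX1 was lost without replicate 1 or 3 of HSUD or D2R or replicate 3 of HSD (up to 0.0595). ND5 was lost without replicate 1 of NHSUD, or replicate 1 or 3 of HSUD, HSD or D2R (up to 0.116), and KEH36_t22 without replicate 1 of NHSUD or HSUD, or 1 or 3 of NHSD (up to 0.0576). In run 3 against run 2, KEH36_r01 was lost without replicate 2 of NHSUD or NHSD, or replicate 3 of HSUD, HSD, D2R or D6R (up to 0.0790). COX1 was lost without replicate 2 of NHSD, or replicate 2 or 3 of HSUD, HSD, D2R or D6R (up to 0.146). COX2 was lost without replicate 2 of NHSD or D6R, replicate 3 of HSD or D2R, or either of HSUD (up to 0.0810).

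Nuclear genes that serve the mitochondrial genome were read beside it, in lists by role. With heat, 78 of 82 nuclear respiratory subunits had a higher fitted level in undifferentiated cells (median log2 fold change 0.25) and 76 of 82 in differentiated cells (0.19). Mitochondrial ribosomal proteins were higher for 75 of 78 in both media (0.21 and 0.16). The mitochondrial mRNAs were higher for 3 of 13 (-0.10) and 8 of 13 (0.05), and the median of all tested genes was 0.01 and -0.00. None of these list members was called (edgeR), and members of a list share libraries and are not independent.

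At 6 h of recovery, most genes of the large nuclear lists had lower fitted levels than in HSD. Against HSD the median was -0.23 for respiratory subunits (79 of 82 lower) and -0.24 for ribosomal proteins (76 of 78 lower), beside -0.57 for the 13 mitochondrial mRNAs. Against NHSD it was -0.05 (54 of 82 lower), -0.07 (62 of 78 lower) and -0.45. The difference between lists was not tested. The 15 genes of mitochondrial transcription and replication had a median of 0.16 against NHSD (10 of 15 higher) and 0.10 against HSD (8 of 15 higher). The 24 RNA processing genes in the table had 0.02 and -0.05, the 13 translation factors -0.08 and 0.01, and the 10 tested regulators of biogenesis 0.00 and 0.04.

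**Figure D5:**
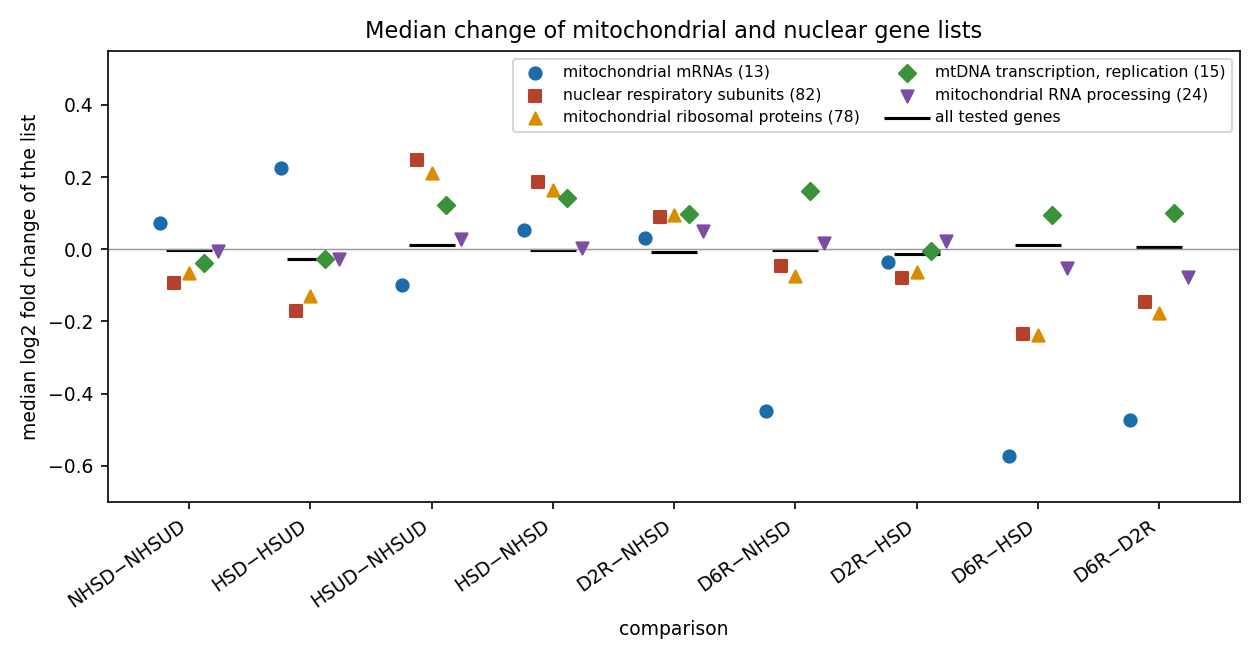
Median log2 fold change (y axis) of the 13 mitochondrial mRNAs and of 4 nuclear gene lists in 9 comparisons (x axis), with list sizes in the legend and black bars for the median of all tested genes. The mitochondrial mRNAs lie at -0.45, -0.57 and -0.47 in the 3 comparisons of D6R, and the nuclear respiratory subunits and mitochondrial ribosomal proteins lie above 0 with heat in both media.

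With the replicate block, single nuclear genes were called. In D6R against NHSD, where 0.673% of all tested genes were called higher, these were TWNK, the helicase of mitochondrial DNA replication (0.48 ± 0.12, edgeR adjusted p = 0.0407), and MRPS27 of the small ribosomal subunit (-0.36 ± 0.09, adjusted p = 0.0407). In D6R against HSD, where 1.5% of all tested genes were called lower and 1.77% higher, 7 of 78 ribosomal proteins fell, led by MRPL20 (-0.45 ± 0.09, adjusted p = 0.0160). ATP5F1D of ATP synthase fell by 0.43 ± 0.10 (adjusted p = 0.0257), the membrane insertase OXA1L by 0.31 ± 0.08 (0.0395) and the elongation factor TUFM by 0.30 ± 0.08 (0.0484), all on the log2 scale. PPARGC1A, a coactivator of mitochondrial biogenesis, rose by 0.81 ± 0.21 (adjusted p = 0.0392), and PTCD1, which binds mitochondrial RNA, by 0.54 ± 0.15 (0.0484).

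For heat averaged over both media, with the block, 16 of 82 respiratory subunits and 14 of 78 ribosomal proteins were called higher and 0 lower (3.13% and 2.97% of all tested genes), led by COX5B (0.33 ± 0.07, edgeR adjusted p = 0.0102) and MRPS17 (0.50 ± 0.10, adjusted p = 0.00517). The transcription terminator MTERF1 rose by 0.40 ± 0.08 (adjusted p = 0.00621) while POLRMT, the polymerase that transcribes mitochondrial DNA, fell by 0.31 ± 0.09 (adjusted p = 0.0473). NRF1, a transcription factor of nuclear respiratory genes, rose by 0.31 ± 0.08 (adjusted p = 0.0332). FASTKD3, a factor in mitochondrial RNA metabolism, fell by 0.33 ± 0.09 (adjusted p = 0.0425).

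Against run 1, many nuclear list genes were called lower. In run 2 against run 1, 58 of 82 respiratory subunits were called lower and 1 higher, and 49 of 78 ribosomal proteins lower and 0 higher (13.9% of all tested genes were called lower). In run 3 against run 1 it was 47 lower and 1 higher of 82, and 63 lower and 1 higher of 78 (21.4% of all tested genes lower). In run 3 against run 2, 1 of 82 respiratory subunits was called lower and 7 higher, led by NDUFS1 (0.36). Of 78 ribosomal proteins, 14 were called lower and 2 higher. Among all tested genes, 14.5% were called lower and 15.1% higher in that comparison. SSBP1, which coats single-stranded mitochondrial DNA, was -0.47 ± 0.09 in run 2 and -0.55 ± 0.09 in run 3 against run 1 (edgeR adjusted p = 0.000519 and 4.2e-05).

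Cell type markers and histone genes also differed between runs. Of 8 epithelial markers, 4 were called lower and 1 higher in run 2 against run 1. In run 3 against run 1 it was 3 lower and 5 higher, and against run 2 it was 1 lower and 4 higher. Among all tested genes, 13.9%, 21.4% and 14.5% were called lower and 14.8%, 23% and 15.1% higher in these 3 comparisons. In run 3 against run 1 the keratins KRT14 and KRT7 had log2 fold changes of 0.91 and 0.62 (edgeR adjusted p = 2.71e-05 and 1.94e-06). CDH1, an adhesion protein of epithelia, had 0.70 (edgeR adjusted p = 4.9e-07). EPCAM, another epithelial marker, went the other way with -0.40 (edgeR adjusted p = 3.86e-05). Of 6 tested fibroblast markers, 2, 1 and 2 were called lower and 1, 2 and 1 higher in the same 3 comparisons. In run 3 against run 1 DCN had 0.38. LUM had -3.51, but its mean over all libraries was only 0.51 CPM. The summed epithelial markers ranged from 15754 to 20429 CPM in run 1, 14254 to 19847 in run 2 and 18764 to 25439 in run 3, and the fibroblast markers from 511 to 619, 428 to 598 and 622 to 821 CPM. The fibroblast collagens COL1A1 and COL1A2 averaged 0.101 and 0.027 CPM. Of the 31 HIST genes, 13 were called lower and 1 higher in run 3 against run 1, and 14 lower and 2 higher in run 3 against run 2. Their part in the differences of the mitochondrial genes between runs was not tested.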

How the data were processed

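Per the labels' protocols, the authors ran fastp 0.23.2 for trimming and STAR 2.7.9a for alignment, with ARS-UCD 1.3 as the reference. The submitters' processing notes also name featureCounts 2.0.3, DESeq2 and limma. The deposited table holds raw counts per gene. All columns were matched to samples by label.

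Genes were filtered with edgeR 4.0.16 (filterByExpr, minimum count 10), which left 15158. Counts were TMM-scaled and modelled in R 4.3.3 with a mean for each of the 6 groups, using the 18 libraries together, and contrasts were tested by quasi-likelihood (robust, two-sided). Run contrasts added the replicate number. P-values were adjusted by Benjamini-Hochberg over every tested gene, and genes under 0.05 were called. SE was taken from the F statistic. The scripts were tested on simulated data. Differences within runs are log2 ratios of CPM. Shares and ratios were tested by exact permutation over libraries.

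The replicate number paired the samples: over all tested genes, deviations from group means correlated above 0.1 in 45 of 45 same-numbered pairs (0.135 to 0.596). The labels state that the experiment was repeated. Over the 17 mitochondrial genes alone the pairing was less uniform. There 40 of 45 pairs correlated positively and 32 above 0.1 (-0.343 to 0.939). Alternatives were a replicate block, DESeq2 1.42.0, other scalings and filters, and leaving out libraries. The members, the lists and the comparisons were chosen with earlier results of these data known. Any KEH36 gene could be named, with values in every library for those called and for the most highly counted of each class. Named list genes were those called, at most 4 per list, by adjusted p. With 3 libraries per group, an exact test of 1 gene cannot go below p = 0.1. A histone list matched no name, so names starting with HIST were used instead, after the data were seen. The result of another marker list is not reported here.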

Additional observations from a re-analysis of the deposited data

How the results depend on the processing

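The mitochondrial share of all counts, heat over both media, changed sign without COX1 (-0.0743 points), with protein-coding mitochondrial genes only (-0.000500 points), as a log2 ratio of mitochondrial to other counts (-0.0275) and without replicate 3 (-0.471), and ranged from -0.471 to 0.444 points when 1 replicate number was left out. The share of run 2 against run 1 without COX1 was -0.0514 points. Mitochondrial genes called in 6 h recovery against unheated numbered 1 with the replicate block and 1 with DESeq2 (ND3 in both). In the edgeR fits without a block they numbered 0. The blocked edgeR fit without replicate 1 of D6R called ND3 and CYTB (adjusted p = 0.0202 and 0.00544). The replicate block changed no other planned count of calls. For the runs, leaving out 1 library gave 0 to 3 members called in run 2 against run 1, 0 to 4 in run 3 against run 1 and 0 to 3 in run 3 against run 2. With no filter on low counts these were 0, 1 and 0. COX1 in 6 h recovery against unheated turned to 0.0165 without NHSD replicate 1 (-0.298 to 0.0165 over the left-out libraries), and COX1 in 6 h against 2 h recovery to 0.0588 without D2R replicate 3 (-0.443 to 0.0588). The cause was not tested. Of the alternatives to log2 fold changes of single members, 732 kept direction and side of the threshold, 65 lost a call, 5 gained one and 2 changed sign. Low read counts limit the tRNA genes other than KEH36_t22 and KEH36_t12, of which 19 had at most 10 reads. The cause of these low counts was not tested.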

Other observations

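Genes outside the mitochondrial genome were ranked by how their log2 CPM followed the summed mitochondrial CPM over the 18 libraries, among 10054 genes with a mean of at least 5 CPM. The highest Pearson correlations were 0.911 for AP3B1, 0.891 for SLC31A1, 0.878 for ACTR2, 0.858 for AP2B1 and 0.856 for HIST2H2BE. AP3B1 and AP2B1 code for subunits of vesicle coat adaptors, SLC31A1 for a copper importer, ACTR2 for a subunit of the actin-nucleating complex and HIST2H2BE for a histone. The lowest were -0.912 for BAP1, -0.891 for PEX10, -0.886 for PPM1F, -0.863 for LEMD2 and -0.843 for ZNF133. BAP1 is a deubiquitinase, PEX10 a factor of peroxisome assembly and PPM1F a phosphatase. Over all eligible genes the 5th and 95th percentiles were -0.514 and 0.535. The libraries share runs and scaling, so these values are a description of 18 libraries.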
